A study of Mus musculus with 13 samples.

Results

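The regions described here are short autosomal stretches of chromatin listed as H3K27me3 regions shared between mouse embryonic stem cells (ESCs) lacking SAFB and SAFB2 and wild-type ESCs. They were taken from the submitters' union of H3K27me3 regions by 3 criteria. These were a place on chromosomes 1 to 19 other than 6 and 11, a length under 1000 bp and a listing as shared. A shared listing is read here as a peak called from H3K27me3 signal in both genotypes, which would favour regions that differ little between them. The listings in DKO only and WT only are read likewise. The criteria selected 4730 of the 57909 union regions, 30.1% of the 15732 shared regions on the same 17 chromosomes. Their lengths ran from 271 to 999 bp with a median of 698 bp.

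H3K27me3 chromatin immunoprecipitation followed by sequencing was available from 4 SAFB/SAFB2 double-knockout (DKO) libraries and 5 wild-type (WT) libraries, and total histone H3 from 2 DKO and 2 WT libraries. DKO H3K27me3 replicate 1 came from DKO clone 4 and replicates 2 to 4 from clone 13, as did both DKO H3 libraries, so the mutant cells represent 2 clones. All cells were male CAST/B6 hybrid ESCs with a Rosa26 recombination-mediated cassette exchange (RMCE) site, all had 3 days of doxycycline, WT included, and all were fixed with 0.6% formaldehyde. The label names of DKO replicates 3 and 4 and WT replicates 4 and 5 carry the words Old or New, those of WT replicates 2 and 3 carry the stems wt20 and wt44 in place of rmce, and nothing says which replicates were separate cultures, so p-values measure the spread between these libraries only. Reads in union regions numbered 2244851 to 3035866 in the DKO and 1818647 to 3134799 in the WT H3K27me3 libraries, and 525847 to 736566 in the 4 H3 libraries. At promoters, lineage regulators held a median H3K27me3 of 148 to 178 CPM (the count scaled to the library's promoter total) in DKO and 150 to 176 CPM in WT libraries. Single genes ran from 16.2 CPM at Sox17 to 358 CPM at Neurog2. Pluripotency genes held 5.00 to 6.90 CPM in DKO and 3.09 to 7.62 in WT libraries, from 0 at Nanog to 92.0 at Klf4, and housekeeping genes 0.383 to 2.12 and 0.619 to 2.18. H3K27me3 was thus high at the median lineage regulator and low at most pluripotency genes, as is known of ESCs, though Sox17 lay below Klf4. Chromatin libraries do not measure Safb or Safb2 RNA, so the genotypes rest on the labels.

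H3K27me3 is placed on histone H3 by Polycomb repressive complex 2, which marks CpG-rich promoters of silent developmental genes in ESCs. Domains can span many kilobases, and short, weak stretches of the mark lie between and around them. Ribosomal and transfer RNA genes, satellites and recently duplicated gene families exist in many near-identical copies, so that one assembled copy can collect reads from many and show a density of reads that says nothing of the mark on a single locus. SAFB and SAFB2 are nuclear RNA- and DNA-binding proteins known from studies of the nuclear matrix and of RNA processing.

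RefSeq promoter windows (250 bases before to 50 after a transcription start, GRCm38.p6) overlapped 168 of the 4730 short regions (3.55%), and 78 windows lay wholly inside one. The Grik5 window is shown as one that lies whole inside a short region, at 1.35 times the median H3K27me3 density, that was not called in DKO cells. It runs over chr7:25072320-25072619 on the minus strand, was 72% G and C, and has its 10 CpG dinucleotides in capitals.
Grik5: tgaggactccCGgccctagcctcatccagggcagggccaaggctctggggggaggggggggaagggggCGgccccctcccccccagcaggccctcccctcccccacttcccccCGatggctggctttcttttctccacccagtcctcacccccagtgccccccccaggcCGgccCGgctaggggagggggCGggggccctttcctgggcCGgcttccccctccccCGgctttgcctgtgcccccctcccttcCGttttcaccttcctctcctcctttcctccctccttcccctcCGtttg
The window of Gm15564, a long noncoding RNA gene, is shown because the region over it had 9.13 times the median H3K27me3 density of the short regions and fell in DKO cells. Of its windows the one with most bases inside the region is given, at chr16:35981798-35982097 on the minus strand, and those 179 bases are in capitals.
Gm15564: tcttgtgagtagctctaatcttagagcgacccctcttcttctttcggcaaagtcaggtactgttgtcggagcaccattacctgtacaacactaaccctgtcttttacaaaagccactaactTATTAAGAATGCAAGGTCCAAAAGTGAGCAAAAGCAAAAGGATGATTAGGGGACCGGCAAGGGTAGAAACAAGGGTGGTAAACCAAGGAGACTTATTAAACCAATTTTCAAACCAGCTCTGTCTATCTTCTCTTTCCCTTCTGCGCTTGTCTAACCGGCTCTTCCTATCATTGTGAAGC
The windows of Gm13286, Gm13283 and Gm13272 are shown because regions at these protein-coding genes beside the interferon zeta gene Ifnz are dense and were not called in DKO cells. The Gm13286 window is chr4:88757594-88757893 on the plus strand, with the 212 bases inside its region in capitals.
Gm13286: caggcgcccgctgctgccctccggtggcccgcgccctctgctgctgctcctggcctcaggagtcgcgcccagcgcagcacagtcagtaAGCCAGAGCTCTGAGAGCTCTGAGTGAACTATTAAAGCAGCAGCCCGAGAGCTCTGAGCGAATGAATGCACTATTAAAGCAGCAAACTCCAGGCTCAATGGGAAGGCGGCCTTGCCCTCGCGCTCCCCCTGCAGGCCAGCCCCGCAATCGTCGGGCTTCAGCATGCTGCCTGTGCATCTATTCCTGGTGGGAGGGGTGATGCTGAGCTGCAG
The last 150 bases of the other windows, chr4:88760674-88760823 for Gm13283 and chr4:88779750-88779899 for Gm13272, both on the plus strand, differ from the last 150 of Gm13286 only at the bases in capitals. Both stretches lie outside the short regions at these genes, which are chr4:88759576-88760027 and chr4:88780293-88780755.
Gm13283: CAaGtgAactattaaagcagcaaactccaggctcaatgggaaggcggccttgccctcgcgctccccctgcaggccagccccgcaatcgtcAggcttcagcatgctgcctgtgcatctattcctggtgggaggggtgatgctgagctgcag
Gm13272: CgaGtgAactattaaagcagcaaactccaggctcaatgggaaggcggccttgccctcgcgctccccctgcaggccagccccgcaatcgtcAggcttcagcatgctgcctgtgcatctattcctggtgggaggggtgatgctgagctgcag
The Gm13283 stretch was identical to that of Gm13286 at 145 of 150 bases and the Gm13272 stretch at 146 of 150. The Gm13286 window shared at least one identical run of 25 bases with the windows of 8 other genes, whereas the Gm15564 and Grik5 windows shared none with any other window in the table. That count covers promoter windows only, and copies elsewhere in the genome were not searched.

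The short regions held a low and even level of H3K27me3. Density, the count divided by the scaled library total and the region's length (CPM per kb), had a median of 8.83 over the 9 H3K27me3 libraries, and 4626 of the 4730 regions (97.8%) lay below 1.5 times that value. By library, the median was 8.36 to 8.92 CPM per kb in DKO and 8.45 to 9.79 CPM per kb in WT cells. WT replicate 1 was highest at 9.79, and the ranges of the genotypes overlapped. Shared regions of 1 to 5 kb had library medians of 9.66 to 10.4 CPM per kb in DKO and 9.32 to 10.98 in WT, those of 5 to 10 kb 16.1 to 17.6 and 17.1 to 19.6, and those of 10 kb or more 21.1 to 23.0 and 24.5 to 26.7. The total H3 density ran the other way and changed little, with a median of 13.3 CPM per kb at the short regions, 12.6 at 1 to 5 kb, 12.3 at 5 to 10 kb and 11.8 at 10 kb or more. H3K27me3 density over H3 density, each as a median, was 0.666 at the short regions and 2.03 at regions of 10 kb or more. These are ratios of 2 shares of sequenced reads, not of molecules. Within the short regions, the 271 of up to 400 bp had a median of 9.77 CPM per kb and the 1538 of over 800 bp one of 8.51. At the limit of length, the 999-bp region on chromosome 3 had 1.16 times the median density, and the shared 1000-bp region on chromosome 14 just beyond it 0.843 times.

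**Figure D1:**
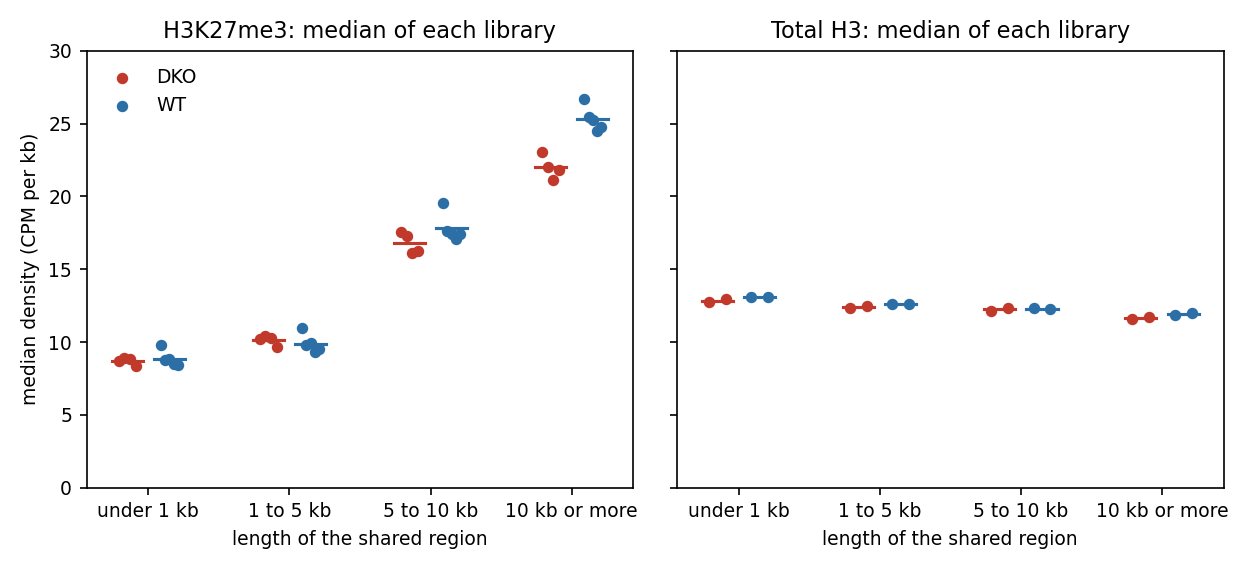
Median density (CPM per kb) of shared autosomal regions in each library, by region length, for H3K27me3 (left) and total H3 (right); dots are libraries, DKO left of WT, and bars are group means. H3K27me3 medians of regions under 1 kb lay between 8.36 and 9.79 CPM per kb, and those of regions of 10 kb or more between 21.1 and 26.7, while H3 medians stayed between 11.6 and 13.1.

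A very high-density class was set apart, defined as regions whose mean density was over 10 times the median of the short regions in either H3K27me3 or H3. It held 8 of the 4730 regions, 7 by H3K27me3 and 1 by H3. They took 1.19% to 2.09% of all reads in short regions in the DKO H3K27me3 libraries and 2.38% to 3.09% in the WT ones. At a threshold of 5 times the median the class would hold 13 regions and at 20 times 2. The lowest region inside by H3K27me3, at Gm13286, stood at 11.5 times the median, and the highest region outside, at Gm15564, at 9.13 times in H3K27me3 and 3.48 times in H3.

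H3K27me3 in DKO and WT cells was compared region by region with edgeR's quasi-likelihood test across all union regions, calling an adjusted p (Benjamini-Hochberg) under 0.05. Of the short regions, 15 were lower and 1 was higher in DKO cells among 4461 tested, while 269 had too few reads to be tested. Across all 40418 tested union regions the share called lower was 1.88% and the share called higher 2.16%, 4.03% together, against 0.336% and 0.0224% of the tested short regions. That union includes regions called in DKO only (3.96% higher on the same chromosomes) and in WT only (3.56% lower). The shared listing leaves these out, so the low share here is partly set by the selection. Shared regions of 1 to 5 kb had 0.700% lower and 1.09% higher. The middle of the distribution was near zero, with a median log2 fold change (DKO over WT) of -0.02 at the short regions and -0.02 over all tested regions, and the 25th and 75th percentiles of the short regions were -0.19 and 0.15. The precision was limited, since the median short region had 139 H3K27me3 reads over 9 libraries and a standard error of 0.27 on the log2 scale, against 0.07 at regions of 10 kb or more. An unadjusted p under 0.05 was reached by 158 short regions (3.54%) and by 7900 of all tested regions (19.5%). The counts were 11 lower and 2 higher within the libraries named Old or New, and 8 lower and 0 higher within the other 5. Without DKO replicate 3 the counts were 9 lower and 0 higher, and without WT replicate 1 they were 18 lower and 12 higher. The count of rises was also 4 without DKO replicate 1, and 0 when WT replicate 2, WT replicate 5 or DKO replicate 2 was the one left out.

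**Figure D2:**
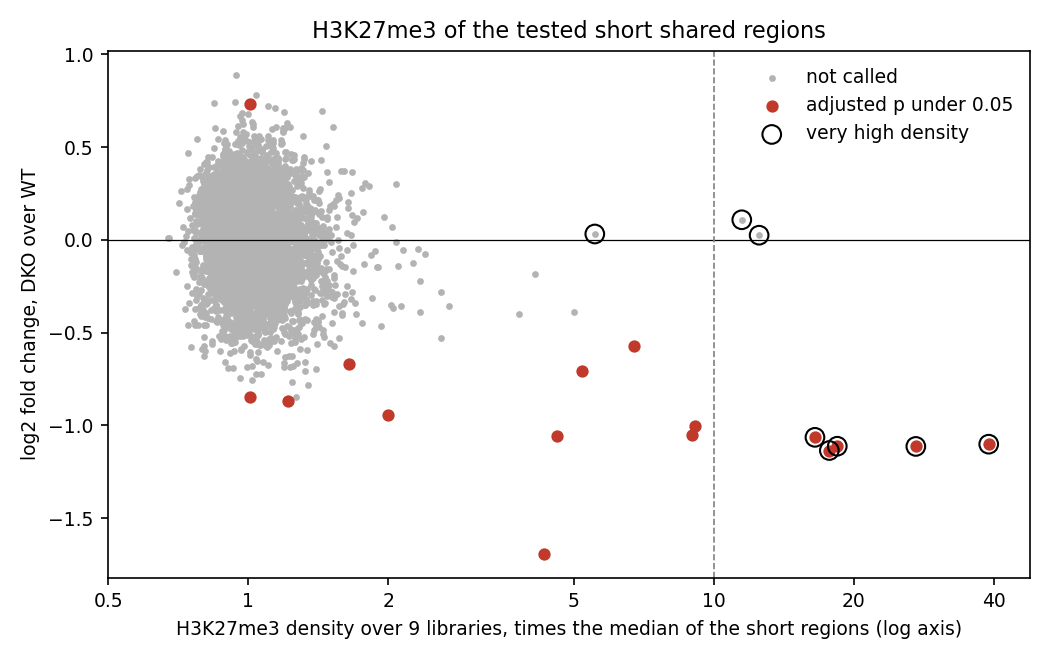
Log2 fold change of H3K27me3, DKO over WT, against mean density over the 9 libraries as a multiple of the median of the short regions (log axis), for the 4461 tested regions; red points passed an adjusted p of 0.05, rings mark the very high-density class and the dashed line its threshold of 10 times. The called regions of highest density lie close to -1.1, while 3 ringed regions lie near 0.

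The falls concentrated among the densest regions. Of the 13 short regions over 5 times the median H3K27me3 density, 9 were lower in DKO cells. Of the 4448 tested regions up to 5 times the median, 6 were lower and 1 was higher. The dense regions carry more reads and smaller errors, so the power of the test differed with density. The 9 falls had log2 fold changes of -1.13 to -0.57, beside a 5th percentile of -0.44 over the tested short regions. Why the falls lie among the dense regions was not tested. Density was averaged over both genotypes. All 9 dense regions kept their call under DESeq2, under each other scaling, without clone 4 and with replicate numbers as a block, and 7 to 9 kept it when one library was left out. Within the libraries named Old or New 8 of the 9 kept it, and within the others 7.

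The densest short region lay at chr16:57391305-57391825, inside the spans of Cmss1 and Filip1l, at 39.0 times the median H3K27me3 density and 7.77 times the median H3 density. It had 290, 205, 155 and 195 CPM per kb in DKO replicates 1 to 4, against 577, 491, 356, 429 and 406 CPM per kb in WT replicates 1 to 5. Every DKO library was below every WT library, the group means were 211 ± 56.6 and 452 ± 85.3 CPM per kb (SD, n = 4 and 5), and the log2 fold change was -1.10 (SE 0.09, edgeR adjusted p = 1.6e-24).

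The region at chr3:5860260-5860910 lay in no RefSeq gene, at 27.2 times the median. It had 196, 129, 111 and 149 CPM per kb in DKO and 366, 327, 253, 329 and 305 CPM per kb in WT libraries. The groups did not overlap, and the log2 fold change was -1.11 (SE 0.09, edgeR adjusted p = 1.6e-24).

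Inside Zc3h7a, a zinc finger protein gene, and at the promoter row of Gm23935, chr16:11143860-11144382 stood at 18.4 times the median. It had 159, 103, 59.8 and 76.5 CPM per kb in DKO and 276, 259, 182, 172 and 180 CPM per kb in WT libraries. DKO replicate 1, the clone 4 library, was highest of the DKO group here and in the 2 regions above, and all DKO libraries were below all WT libraries. The log2 fold change was -1.11 (SE 0.11, edgeR adjusted p = 1.96e-15).

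Lars2 encodes the mitochondrial leucyl-tRNA synthetase, and chr9:123461787-123462262 lies within it at 17.7 times the median. DKO libraries had 126, 78.4, 77.0 and 96.7 CPM per kb, and WT libraries 237, 185, 185, 202 and 223 CPM per kb. The log2 fold change was -1.13 (SE 0.11, edgeR adjusted p = 3.23e-17). Cdk8 encodes a kinase of the Mediator complex, and chr5:146260825-146261349 within it stood at 16.5 times the median. DKO libraries had 136, 76.1, 64.4 and 87.0 CPM per kb, and WT libraries 228, 217, 146, 186 and 172 CPM per kb. The log2 fold change was -1.06 (SE 0.11, edgeR adjusted p = 1.16e-14). Neither region had DKO and WT libraries that overlapped, and DKO replicate 1 was again highest of the DKO group in both.

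Total H3 at these 5 regions was 3.87 to 7.77 times the median of the short regions. Its log2 fold changes (DKO over WT) were -0.41 to -0.30, and none passed, with a smallest unadjusted p of 0.130 in the edgeR fit. The change in H3K27me3 over H3 (DKO against WT) was -0.85 to -0.67 on the log2 scale, and none passed, with a smallest edgeR p of 0.00272 unadjusted and 0.543 adjusted. The H3 libraries held 69 to 160 reads at each of these regions in all.

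A longer union region that is not one of the short regions also fell in DKO cells, and its fall was not tested against theirs. It is the 5950-bp stretch at chr17:39842973-39848922 over the RefSeq 18S ribosomal RNA pseudogene Rn18s-rs5 and the long noncoding RNA AY036118, at 57.1 times the median H3K27me3 density of the short regions and 20.1 times the H3 density. It had 388, 262, 235 and 270 CPM per kb of H3K27me3 in DKO libraries and 958, 581, 446, 671 and 732 in WT libraries, with no overlap. The log2 fold change was -1.23 (SE 0.06, edgeR adjusted p = 2.9e-52) for H3K27me3 and -0.50 for total H3 (edgeR adjusted p = 0.00157). The change in H3K27me3 over H3 was -0.76 (edgeR adjusted p = 4.35e-06), the single call among the 54290 regions tested for it. Whether the 5 short regions contain ribosomal sequence was not tested, since their sequence was not used here.

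The other 3 very high-density regions did not pass the test. The Gm13275 region, chr4:88793876-88794363, had 138, 136, 76.4 and 97.8 CPM per kb in DKO and 124.7, 112, 119, 99.4 and 93.6 in WT libraries, and a log2 fold change of 0.03 (SE 0.12). The Gm13286 region, chr4:88757682-88758180, had 106, 114, 96.9 and 106 CPM per kb in DKO and 101, 97.8, 94.4, 111 and 87.7 in WT libraries, and a log2 fold change of 0.11 (SE 0.12). The genotypes overlapped in both. The region at chr10:58225181-58225605, at the promoter row of AW822073 and inside LOC100504180, was in the class by H3 only, at 11.9 times the H3 median and 5.56 times the H3K27me3 median. It had 147 and 148 CPM per kb of H3 in the DKO libraries and 151 and 184 in the WT libraries, and its H3K27me3 log2 fold change was 0.03 (SE 0.17).

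**Figure D3:**
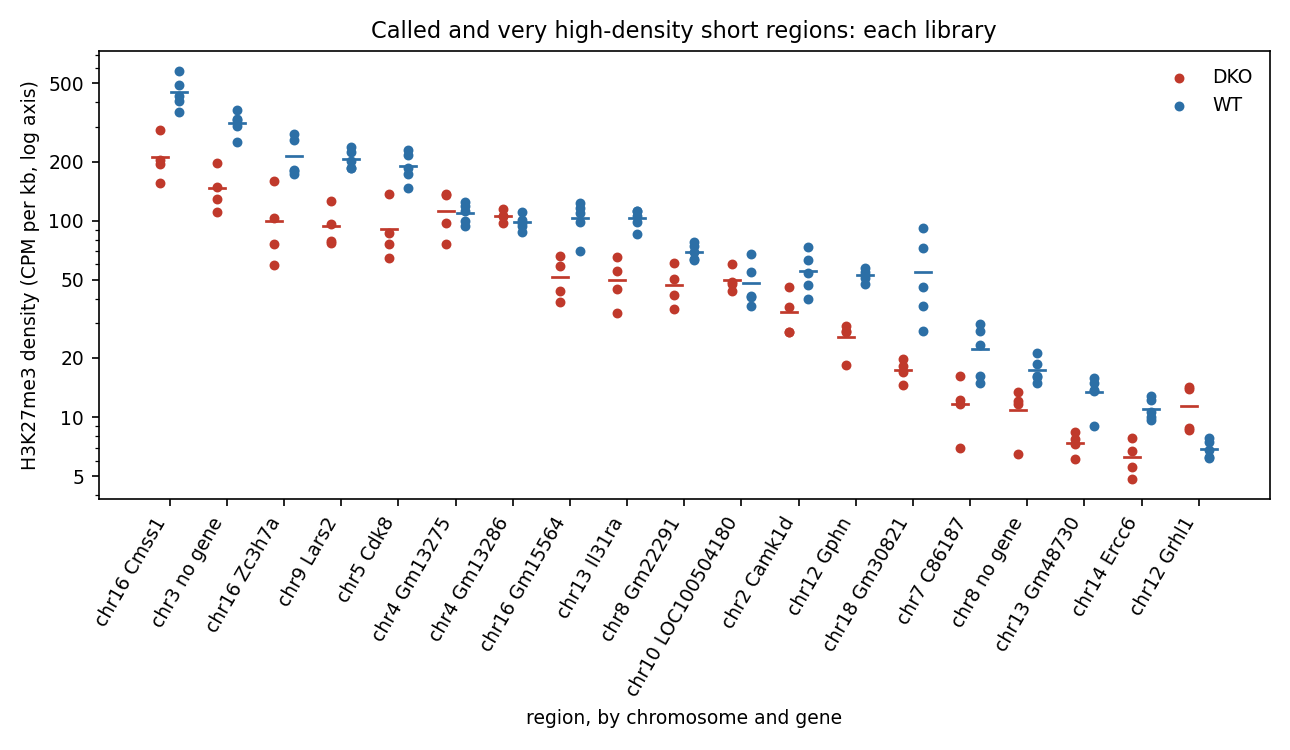
H3K27me3 density (CPM per kb, log axis) in each library for the 16 called regions and the 3 very high-density regions that were not called, ordered by mean density and named by chromosome and gene; dots are libraries, bars are group means, DKO left of WT. The 5 densest regions and most of the others have all DKO libraries below all WT libraries, the regions at Gm13275, Gm13286 and LOC100504180 overlap, and Grhl1 at the right end is the single rise.

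Just below the class, 2 regions fell by a similar amount. Il31ra encodes a subunit of the interleukin 31 receptor, and chr13:112578005-112578463 within it had 65.6, 45.0, 33.7 and 55.6 CPM per kb in DKO and 112, 99.0, 85.2, 106 and 111 in WT libraries. Its log2 fold change was -1.05 (SE 0.14, edgeR adjusted p = 4.36e-09). The Gm15564 region, whose promoter bases are printed above, also meets a promoter row of Kpna1, which encodes an importin alpha of nuclear import. It had 66.2, 38.6, 43.7 and 59.1 CPM per kb in DKO and 123, 98.7, 70.5, 110 and 117 in WT libraries, and a log2 fold change of -1.005 (SE 0.14, edgeR adjusted p = 2.29e-08). In both, every DKO library was below every WT library, DKO replicate 1 was the highest DKO library, and H3 was 2.29 and 3.48 times its median.

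The largest fall lay inside Gm30821, a long noncoding RNA gene, at chr18:68691902-68692358, a region at 4.33 times the median. It had 16.9, 18.3, 14.5 and 19.9 CPM per kb in DKO and 91.5, 36.8, 27.4, 46.2 and 72.5 in WT libraries. The DKO libraries were close together and the WT libraries spread widely, with the wt20 and wt44 libraries lowest at 36.8 and 27.4 and the 3 rmce libraries at 46.2 or more. The log2 fold change was -1.69 (SE 0.20, edgeR adjusted p = 1.97e-11). It ranged from -2.002 to -1.46 over the alternative fits and passed in each.

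The other dense falls were smaller or less stable. Gphn encodes gephyrin, which anchors inhibitory receptors at synapses, and chr12:78350753-78351200 within it had 18.3 to 29.3 CPM per kb in DKO and 47.6 to 57.5 in WT libraries, with a log2 fold change of -1.06 (SE 0.18, edgeR adjusted p = 1.14e-05). Within the libraries not named Old or New it was -0.97 and did not pass (edgeR adjusted p = 0.0660). Camk1d encodes a calcium- and calmodulin-dependent kinase, and chr2:5379100-5379551 within it had 27.2 to 45.9 CPM per kb in DKO and 39.7 to 73.8 in WT libraries. These ranges overlapped, and the log2 fold change of -0.71 (SE 0.17, edgeR adjusted p = 0.00586) no longer passed without DKO replicate 2 or 3, within the libraries named Old or New (adjusted p = 0.0712) or within the others (adjusted p = 0.384). Apart from a 5S region described with its neighbours, the last 4 falls lay at 1.01 to 1.99 times the median. They comprised Ercc6, a gene of transcription-coupled DNA repair (-0.84), Gm48730 (-0.87), the C86187 long noncoding RNA locus (-0.95) and an intergenic region of chromosome 8 (-0.67), as log2 fold changes. All 4 lost the call with replicate numbers as a block, within either set of libraries (named Old or New, and not), and on leaving out any one of WT replicates 2 and 5 and DKO replicate 3.

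Grhl1, which encodes a grainyhead-family transcription factor of surface epithelia, had the only rise. The region chr12:24570697-24571672 at its promoter row had 8.75, 13.9, 14.2 and 8.61 CPM per kb in DKO and 7.79, 7.47, 6.16, 6.83 and 6.26 in WT libraries. All DKO libraries were above all WT libraries, and the log2 fold change was 0.73 (SE 0.23, edgeR adjusted p = 0.0488). The call was lost in 13 and kept in 8 alternative fits, while DESeq2 gave this region no adjusted p. The losses include the fits that leave out any one of WT replicates 2 to 5 or DKO replicates 2 and 3, and the largest edgeR adjusted p was 0.544, within the libraries not named Old or New.

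A further 3 groups of neighbouring dense regions lie at tandem RNA genes or at a gene family, and were chosen after their values were seen. At the 5S ribosomal RNA genes of chromosome 8, whose product is part of the large ribosomal subunit, 5 short regions held 1.83 to 6.75 times the median H3K27me3 density but 0.0867 to 0.482 times the median H3 density, from 1 to 15 H3 reads each. The densest, chr8:123617268-123617722 at the promoter rows of n-R5s146 and Gm22291, had 60.8, 50.2, 41.7 and 35.4 CPM per kb in DKO and 64.1, 69.1, 78.2, 74.0 and 62.9 in WT libraries. All DKO libraries were lower, and the log2 fold change was -0.57 (SE 0.16, edgeR adjusted p = 0.0152), which was lost without DKO replicate 3 or 4 and with the rmce WT libraries only (adjusted p = 0.0897). Within the libraries not named Old or New it was -0.34 (edgeR adjusted p = 0.650). Its 4 neighbours had log2 fold changes of -0.53, -0.40, -0.08 and -0.05, and none passed.

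On chromosome 1, 5 short regions spread over chr1:171067893-171082058, a cluster that holds the transfer RNA gene n-TGgcc14, had 2.12 to 5.01 times the median H3K27me3 density and 0.304 to 1.16 times the median H3 density. Their log2 fold changes ran from -0.39 to -0.13, and none passed. The densest of them had 38.1, 32.9, 41.1 and 38.9 CPM per kb in DKO and 53.5, 44.5, 44.2, 55.4 and 50.0 in WT libraries, without overlap but with an edgeR adjusted p of 0.0670. It passed with TMM factors from regions off chromosomes 6 and 11 (edgeR adjusted p = 0.0364) and when the fit included the Old or New set of each library (0.0425). The interferon-side cluster of chromosome 4 held 4 short regions at 2.07 to 12.5 times the median, with log2 fold changes of -0.18 to 0.11, and none passed. The region inside Gm13272, away from the promoter bases printed above, belongs to it with 36.0, 42.7, 28.0 and 30.5 CPM per kb in DKO and 34.7, 38.8, 37.9, 32.0 and 47.9 in WT libraries.

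Total H3 was tested at 523 short regions, and edgeR called none different between DKO and WT cells, nor did DESeq2. An unadjusted p under 0.05 was reached by 28 of them (5.35%). Over all union regions 0.0211% of 18938 were called. The change in H3K27me3 over H3 between genotypes was tested at 4714 short regions with no call by edgeR and 207 (4.39%) at an unadjusted p under 0.05, against 0.00184% called over all 54290 tested union regions.

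H3K27me3 relative to H3 within each genotype was read against the union as a whole, by scaling both to their library totals over union regions. In DKO cells 20 short regions were above and 226 below the union among 4568 tested, and in WT cells 23 above and 449 below among 4485. The shares over all tested regions were 4.27% above and 8.48% below in DKO and 4.91% above and 17.2% below in WT. The balance rests on that scaling: with TMM factors, which centre the bulk of regions, the counts were 33 above and 6 below in DKO and 41 and 7 in WT. Single H3 libraries also moved the counts. Without H3 replicate 2 the DKO counts were 8 above and 45 below and the WT counts 13 and 68, and without H3 replicate 1 they were 11 and 91, and 15 and 106. Among the regions above the union were 4 of the 5 very high-density falls in DKO and 5 of 5 in WT, 4 and 5 of the 5 regions at 5S genes, 3 and 2 of the 5 at the chromosome 1 cluster, and 3 and 3 of the 4 at the chromosome 4 cluster. These groups were chosen for high H3K27me3 density or after their values were seen. Their place above the union, tested on the same counts, is therefore partly set by that choice. The H3-dense region at AW822073 was below the union in both, at -1.53 in DKO and -1.81 in WT on the log2 scale. That region was in the class by H3 only, so its place below is likewise partly set by the choice.

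Chromosome 8 stood apart from the other chromosomes in every library. Its 368 short regions had library medians of 16.4 and 17.1 CPM per kb of total H3 in DKO and 16.9 and 17.9 in WT libraries, against 11.5 to 13.4 in DKO and 11.9 to 13.9 in WT on the other 16 chromosomes. H3K27me3 was 9.86 to 10.3 CPM per kb in DKO and 10.1 to 11.5 in WT on chromosome 8, against 7.98 to 9.06 in DKO and 7.89 to 10.0 in WT elsewhere. Averaged over libraries the H3 median was 1.34 times and the H3K27me3 median 1.19 times that of all short regions. Longer shared regions of chromosome 8 had an H3 median of 17.9 CPM per kb, against 11.6 to 13.0 on the other chromosomes. Chromosome 8 held 7.78% of the short regions but 22.6% in DKO and 18.7% in WT of those below the union in H3K27me3 over H3. Its median log2 fold change of H3K27me3 was -0.07, with -0.06 to 0.03 on the others, and 2 of its 358 tested regions were lower in DKO. The cause of the higher density was not tested.

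**Figure D4:**
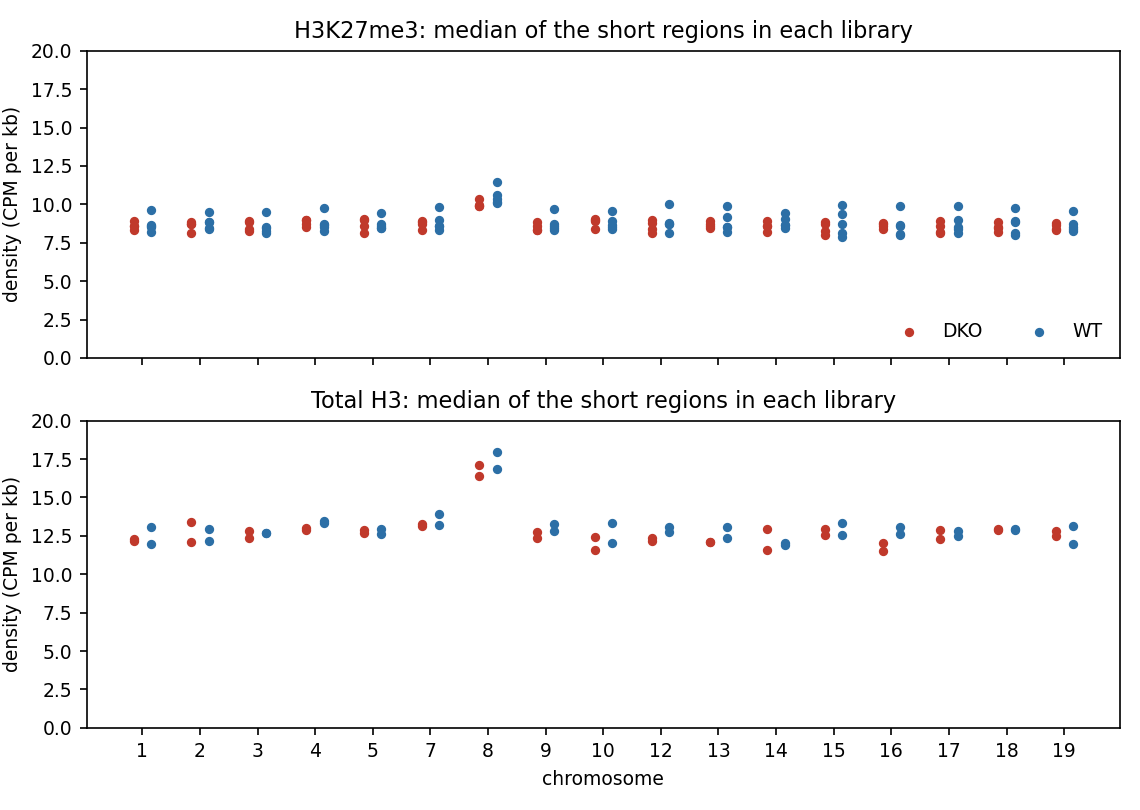
Median density (CPM per kb) of the short regions of each chromosome in each library, for H3K27me3 (top) and total H3 (bottom); dots are libraries, DKO left of WT. Chromosome 8 is highest in both panels, with H3 medians of 16.4 to 17.9 CPM per kb against 11.5 to 13.9 on the others.

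Short regions lay away from promoters more often than long ones. A promoter row of the submitters' table (3001 bp in nearly all cases) overlapped 1325 of the 4730 (28.0%), and covered the greater part of the region in 1100 (23.3%). The overlap was 51.8% for shared regions of 1 to 5 kb, 82.5% for 5 to 10 kb and 91.5% for 10 kb or more, where longer regions have more bases that can meet a row, and it was 17.0% for regions called in DKO only and 18.8% for those called in WT only. A transcription start, placed at an assumed offset from the upstream edge of each promoter row, lay inside 191 short regions (4.04%). It lay inside 25.8% of regions of 1 to 5 kb. Protein-coding genes overlapped 42.2% of the short regions and long noncoding RNA genes 14.2%. The RefSeq promoter windows they overlap had a median G and C content of 55.7% and 8 CpG dinucleotides, against 52.7% and 7 over all 32851 windows and 64.3% and 21 at regions of 5 to 10 kb. At promoter rows the short regions had a median of 9.02 CPM per kb and a median log2 fold change of -0.03, and elsewhere 8.76 CPM per kb and -0.01, with 6 and 9 falls.

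Many short regions lay beside longer ones. Within 5 kb of a shared region of 1 kb or more were 2457 of them (51.9%), against 41.2% of regions called in DKO only and 46.5% of those called in WT only. Within 1 kb the shares were 31.0% for the short shared regions, 17.6% for DKO only and 22.7% for WT only. Shared regions of 1 to 5 kb lay near another shared region of 1 kb or more about as often, 49.6% within 5 kb and 32.4% within 1 kb, and those of 10 kb or more did so in 65.0% and 47.9%. The 131 short regions next to a domain of 10 kb or more had library medians of 8.27 to 9.02 CPM per kb in DKO and 8.25 to 9.60 in WT libraries and a median log2 fold change of -0.02. The domains of 10 kb or more themselves had a median log2 fold change of -0.19, with 45.5% called lower. All 15 falls lay more than 5 kb from a longer shared region, and the rise at Grhl1 lay 1001 bp from a longer neighbour. Another short region lay within 5 kb of 1231 (26.0%), and 263 stood in chains of 3 to 5.

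**Figure D5:**
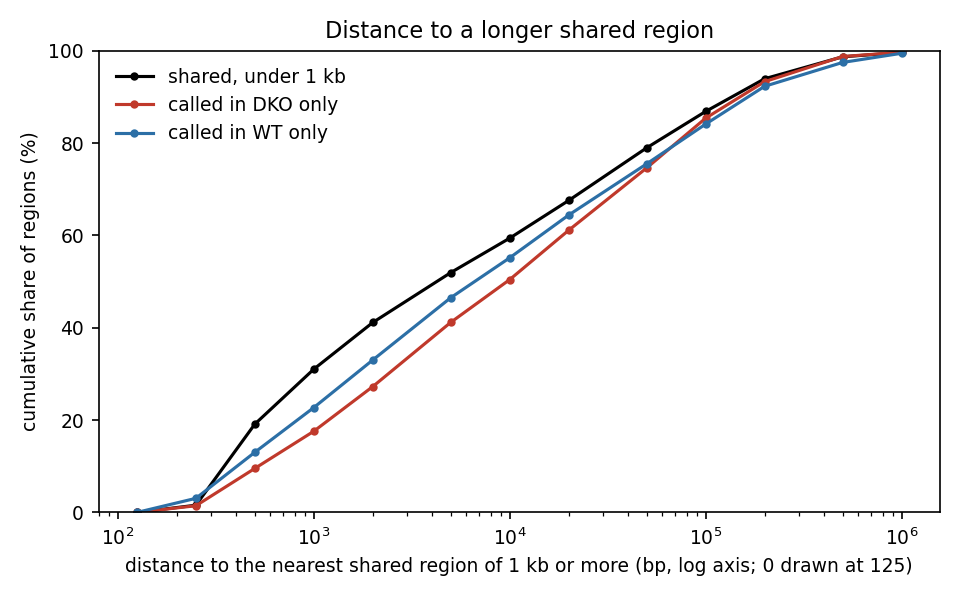
Cumulative share (%) of short shared regions, regions called in DKO only and regions called in WT only against the distance to the nearest shared region of 1 kb or more (bp, log axis). The curve of the short shared regions is above the other 2 from 500 bp to 100 kb, at 51.9% within 5 kb against 41.2% for DKO only and 46.5% for WT only.

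Promoters of developmental regulators were mostly in longer regions, as were promoters in general. Rows of any gene met 1325 short regions and 4739 shared regions of 1 to 5 kb. They also met 1196 of 5 to 10 kb and 376 of 10 kb or more. No Hox promoter row met a short region, and other homeodomain genes met 1, against 119 longer shared regions, 84 of them of 10 kb or more. Forkhead, Sox, T-box and GATA factors met 4, basic helix-loop-helix lineage factors 5, and Wnt, BMP, TGF-beta, FGF, Hedgehog and Notch signalling genes 3. The longer shared regions that these lists met numbered 66, 61 and 107. Axon guidance and adhesion genes met 23 and ion channels and neurotransmitter receptors 16, the most of the lists, against 157 and 192 longer regions. Counting gene bodies as well, these 7 lists touched 0, 51, 15, 11, 20, 60 and 78 short regions, and none of their tested regions was called in DKO cells, where 0.359% of all tested short regions were. Their medians of log2 fold change ran from -0.08 to 0.13, beside -0.02 over all tested regions. The lists match by gene name and so take in some antisense and unrelated names.

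The listed genes named here are those of highest density in each list, at 0.947 to 1.89 times the median, and their values overlapped between genotypes. Prrx2, a paired-related homeobox gene of limb and face mesenchyme, had 7.23 to 14.6 CPM per kb in DKO and 5.996 to 12.4 in WT libraries. Sox2ot, the noncoding transcript around Sox2, had 4.07 to 13.7 in DKO and 7.74 to 14.3 in WT libraries, in a region too thinly read to test. Foxr1, a forkhead gene, had 4.56 to 12.9 in DKO and 8.57 to 11.9 in WT libraries. Ascl4, a basic helix-loop-helix gene, had 5.398 to 13.2 in DKO and 7.11 to 14.1 in WT libraries. Ascl2, of the same family, imprinted and needed in the placenta, had 6.46 to 12.2 in DKO and 7.71 to 11.1 in WT libraries.

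Bmp4, a bone morphogenetic protein ligand, had 4.78 to 11.6 CPM per kb in DKO and 4.65 to 11.5 in WT libraries. Bmpr1a, a receptor for such ligands, had 5.73 to 10.8 in DKO and 6.04 to 9.29 in WT libraries. The genotypes overlapped at both genes. Epha4, an ephrin receptor of axon guidance, had 9.36 to 19.5 in DKO and 14.8 to 16.4 in WT libraries. Cdh1, which encodes E-cadherin and is active in ESCs, had 9.31 to 15.7 in DKO and 10.1 to 16.3 in WT libraries. Kcnk3, a potassium channel gene, had 13.0 to 18.6 in DKO and 14.3 to 22.6 in WT libraries, the densest listed promoter outside the RNA genes. Grik5, a kainate receptor subunit whose promoter window is printed above, had 8.85 to 13.8 in DKO and 9.53 to 16.5 in WT libraries.

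The remaining lists were small. Olfactory, vomeronasal and taste receptors met 2 short regions by promoter, Olfr95 with 7.23 to 14.6 CPM per kb in DKO and 6.61 to 13.2 in WT libraries, and Olfr15 with 6.10 to 10.0 and 6.96 to 13.4. Imprinted genes met 2, Ascl2 and H19, a maternally expressed noncoding RNA, with 10.4 to 13.4 at H19 in DKO and 6.84 to 11.8 in WT libraries. Polycomb genes met 1, Scmh1, a homologue of Sex comb on midleg, with 5.22 to 10.3 in DKO and 8.28 to 13.97 in WT libraries. None of these was called. Ribosomal RNA and satellite names met 7 short regions by promoter row, all tested, and 1 fell, the 5S region described above. RefSeq microRNA hairpins lay inside 4 short regions, those of Mir208b, Mir7b, Mir8119 and Mir5619, with log2 fold changes of 0.05, 0.56, -0.11 and -0.30, and none passed.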

How the data were processed

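Read counts per union region were deposited by the submitters for 13 libraries, and per promoter row for the 9 H3K27me3 libraries, as raw counts with no normalization. The promoter table was counted with featureCounts 2.0.3 without regard to strand, per its file header. The submitters' processing notes list Bowtie2, MACS2, bedtools, Subread, featureCounts and the build mm10, with no roles. The treatment of reads from repeated sequence is not stated there. Deposited coordinate lists mark shared, DKO-only and WT-only regions. The members and gene lists were chosen with earlier results of these data known.

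All 57909 regions were fitted with edgeR 4.0.16 (R 4.3.3): filterByExpr with a minimum count of 10, TMM factors, quasi-likelihood test, Benjamini-Hochberg over all tested regions. H3K27me3 over H3 within a genotype used library totals, and its change between genotypes used TMM factors. DESeq2 1.42.0 was an alternative. Densities are counts over the TMM-scaled library total and length. The scripts were tested on simulated data. A 2-fold change was recovered in 59.7% of altered regions for H3K27me3, 28.4% for total H3 and 19.4% for H3K27me3 over H3 in WT. The altered regions were drawn from all regions that passed the filter, long ones included, so these rates are not those of the short regions. The change of H3K27me3 over H3 between genotypes was not simulated. Libraries of a group were compared by chi-square per degree of freedom (1.05 to 1.89), and none was counted as a repeat of another.

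Named regions were the 6 largest called rises and falls whose libraries do not overlap, the 6 densest outside the very high-density class, the densest 5 (H3K27me3) and 3 (H3) inside it, those next to each threshold, the 2 densest promoters per list, and called H3 or interaction regions. Other called regions, the clusters and the chromosome 17 region were named after their values were seen. Gene spans, biotypes, microRNA hairpins and promoter windows are from RefSeq (GRCm38.p6).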

Additional observations from a re-analysis of the deposited data

Results flagged for a closer look

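In 3 of 96 groups of libraries examined for the named regions and the summed levels of the short regions (3.12%), one library stood farther from the rest than Dixon's 95% limit, where chance flags about 1 group in 20. WT replicate 5 had 13.4 CPM per kb of H3K27me3 at the Olfr15 region, with the other WT libraries at 6.96 to 8.66. WT replicate 3 had 46.0 CPM per kb at the 5S region beside n-R5s136, with the others at 33.9 to 36.9. WT replicate 1 had 28.5 CPM per kb at the n-TGgcc14 region of chromosome 1, with the others at 17.7 to 19.9. None of the 3 regions was called between DKO and WT cells.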

How the results depend on the processing

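Of the 16 calls, 8 passed in all 22 alternatives: the 5 very high-density falls and those at Il31ra, Gm15564 and Gm30821. No named region that was called changed direction. The fits with DKO clone 13 only and without DKO replicate 1 are one and the same, and DESeq2 gave no adjusted p for the regions at Grhl1, Ercc6, Gm48730 and C86187. The count of short regions lower in DKO was 8 within libraries not named Old or New, 9 to 18 when one library was left out, and 11 to 16 otherwise. The count higher was 0 under DESeq2, TMM off chromosomes 6 and 11, the level offset, no filter on low counts, the replicate block and libraries not named Old or New, 2 with RLE factors, a strict filter, a term for the library sets and libraries named Old or New, 4 with DKO clone 13 only, 5 with library totals, and 0 to 12 with one library left out. With library totals 27.8% of the calls were higher, against 6.25% with TMM. Same-numbered DKO and WT libraries did not deviate together (correlations -0.03 to 0.07), so the numbers give no pairing. The words Old and New join other numbers, with correlations of 0.006 for Old (DKO 3, WT 4) and 0.09 for New (DKO 4, WT 5). H3K27me3 pairs matched by neither number nor these words ran from -0.15 to 0.13. The replicate block does not join libraries by these words. With the replicate block, 11 of the 16 calls remained, 168 regions were below the union in WT and 157 in DKO, and no count other than the rises and the 168 moved by over 1.5 times. With TMM, H3K27me3 over H3 gave 41 above and 7 below in WT and 33 and 6 in DKO. With one library left out it gave 8 to 20 above and 45 to 208 below in DKO, and 13 to 22 above and 68 to 538 below in WT; counts for total H3 and for the difference in H3K27me3 over H3 stayed at 0. The very high-density class had 13 regions at 5 times and 2 at 20 times the median, and 1468 regions lay within 1 kb of a longer shared region. The cause of these moves was not tested. The median short region had 5 or 6 reads per H3 library, so 523 of 4730 could be tested for H3.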
